A study of Homo sapiens with 12 samples.

Results

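The genes described here are the Wnt ligand WNT16 and 9 genes that respond to Wnt signalling or feed back on it: AXIN2, LGR5, NKD1, RNF43, ZNRF3, NOTUM, TCF7, LEF1 and ASCL2. These 10 genes, of 60648 in the deposited count table, were taken by symbol. WNT16 was chosen with its low level in knock-out cells known. It stood out in earlier results at the initial harvest, and which values decided the choice is not recorded, so its genotype difference is given below for both harvests as a description with no test. The other 9 were taken as known targets and regulators of the pathway. Of the 10, 7 passed a filter on low counts and could be tested; LGR5, LEF1 and ASCL2 did not pass and are described by their counts.

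RNA-seq of poly-A selected libraries was done in HCT116, a human colon carcinoma line, that was wild type (WT) or knock-out (KO) for MTHFD2, an enzyme of mitochondrial folate metabolism that the series title places in the nucleus. Each genotype was harvested at an initial time, directly after the knock-out was made, and at a final time, after 2 further months of culture, which gave 4 groups of 3 libraries. All cells were grown in DMEM with fetal bovine serum and antibiotics. Initial and final libraries differ in both culture time and harvest occasion, so changes over culture cannot be told apart from other differences between the harvests. The knock-out line was 1 clone made with CRISPR-Cas9, so the loss of MTHFD2 and any other feature of that clone cannot be told apart, and the 3 libraries of a knock-out group replicate the clone.

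Library totals ran from 38597809 to 40017561 counts, and the correlation of log2 levels between libraries of a group was 0.989 to 0.996, with no library standing apart. MTHFD2 transcript was lower in the knock-out, at 413 ± 41.2 CPM in WT initial against 137 ± 9.1 CPM in KO initial, and 355 ± 32.4 CPM in WT final against 137 ± 16.7 CPM in KO final (SD, n = 3). CPM is the count per 1000000 counts of the TMM-adjusted library total. Of 9 markers of colon epithelium, 7 passed the filter and their summed level lay between 2624 and 3233 CPM in wild-type and between 2214 and 2705 CPM in knock-out libraries, while the differentiation markers KRT20, VIL1 and CEACAM5 reached at most 0.704 CPM. The fibroblast markers DCN and LUM and the T-cell marker CD3E had 0 counts in every library, and COL1A1 lay between 36.2 and 77.3 CPM. The 5 fibroblast markers summed to 55.4 to 78.0 CPM in wild-type and 37.3 to 58.8 CPM in knock-out libraries, nearly all of it COL1A1. PDGFRB went the other way, with means of 0.692 and 0.711 CPM in WT initial and final against 1.35 and 1.51 CPM in the knock-out. The epithelial markers did not move alike either. CDH1 had means of 236 CPM in WT initial and 117 CPM in KO initial, and CDX2 13.4 and 15.3 CPM. Whether these marker levels have a part in the results below was not tested. The bulk measurement does not tell fewer cells with a transcript from less transcript per cell.

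Wnt ligands are secreted lipid-modified proteins that bind Frizzled receptors and LRP5 or LRP6 co-receptors. In the canonical branch this stops a cytoplasmic complex of AXIN, APC, CK1 and GSK3 from marking beta-catenin for degradation, and beta-catenin then acts with TCF/LEF factors on target genes. In the intestine this pathway maintains crypt stem cells, and in colon cancer it is commonly switched on by mutation. HCT116 carries an activating mutation of CTNNB1, the beta-catenin gene. Many of the targets act back on the pathway: RNF43 and ZNRF3 remove Frizzled from the cell surface, NOTUM strips the lipid from Wnt proteins, NKD1 binds Dishevelled and AXIN2 serves as a scaffold of the destruction complex.

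Among these genes WNT16 and RNF43 had the lowest knock-out levels relative to wild type, and the promoter sequences of these members are shown because both differences were large at both harvests. They are RefSeq windows on GRCh38.p14 from 250 bases before to 50 bases after a transcription start, written 5′ to 3′ on the gene's strand, with each CG in capitals. The WNT16 window, chr7:121328750-121329049 on the plus strand, held 20 CG and 63.7% G and C. The RNF43 window shown, chr17:58417485-58417784 on the minus strand, held 5 CG and 54.3% G and C. RefSeq gives RNF43 a further start whose window, chr17:58402672-58402971, held 0 CG and 43.7% G and C and is not printed.
WNT16: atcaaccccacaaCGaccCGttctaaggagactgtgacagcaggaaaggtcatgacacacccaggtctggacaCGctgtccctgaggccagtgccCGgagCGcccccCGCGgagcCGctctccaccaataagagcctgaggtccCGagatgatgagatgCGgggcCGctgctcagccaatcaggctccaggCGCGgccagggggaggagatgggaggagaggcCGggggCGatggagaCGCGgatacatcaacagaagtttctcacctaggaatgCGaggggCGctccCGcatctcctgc
RNF43: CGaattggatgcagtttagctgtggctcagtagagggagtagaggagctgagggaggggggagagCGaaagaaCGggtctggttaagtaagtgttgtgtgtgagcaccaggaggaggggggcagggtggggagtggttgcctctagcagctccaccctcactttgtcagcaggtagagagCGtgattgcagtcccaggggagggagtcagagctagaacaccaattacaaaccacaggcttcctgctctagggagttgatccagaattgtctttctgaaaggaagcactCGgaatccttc
Over all 35116 promoter windows of this length the median was 14 CG, and 96.0% held at least 1. RefSeq windows were at hand for 4 of the members (WNT16, RNF43, TCF7 and LEF1, 6 windows in all). The letters CTTTGA, a core of the TCF/LEF motif, occurred on neither strand in these 6 windows and occurred on either strand in 12.9% of all windows. The WNT16 window belongs to the transcript starting at position 121329000; GENCODE 29 also lists a WNT16 transcript that starts at 121325367, and the gene counts separate neither these nor the several starts of RNF43. DNA methylation was not among the measurements used here.

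WNT16 (ENSG00000002745.13, GRCh38 chr7:121325367-121341104, plus strand) encodes a secreted Wnt ligand. The initial wild-type libraries held 71.8, 78.1 and 76.6 CPM and the initial knock-out libraries 4.99, 5.59 and 5.67 CPM. In the final wild-type libraries the level was 139, 137 and 143 CPM, and in the final knock-out libraries 8.58, 7.09 and 6.98 CPM. All 6 wild-type libraries were above all 6 knock-out libraries, and within wild type every final library was above every initial one. At the initial harvest the mean was 75.5 ± 3.30 CPM in wild type and 5.42 ± 0.367 CPM in the knock-out (SD, n = 3), a log2 difference of -3.80 (SE 0.098) or 13.9-fold. At the final harvest WNT16 was 18.5-fold lower in the knock-out, a log2 difference of -4.21 (SE 0.097).

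During culture WNT16 rose in wild-type cells, with a log2 fold change of 0.89 from the initial to the final harvest (SE 0.083, adjusted p 7.61e-06 in edgeR's quasi-likelihood test, which is used throughout). In the knock-out the log2 fold change was 0.48 (SE 0.099, adjusted p 0.022), and every final knock-out library was above every initial one. That call was lost when the initial replicate 1, 2 or 3 or the final replicate 1 of the knock-out was left out, with adjusted p of 0.147, 0.0887, 0.0761 and 0.138. The difference between the genotypes in the size of the time effect was -0.41 on the log2 scale (SE 0.129) and did not pass the threshold (adjusted p 0.168). Both time comparisons and this interaction use the same libraries as the genotype comparisons WNT16 may have been chosen on. Their p-values are therefore not independent of that choice, and no conclusion about WNT16 is drawn from them.

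**Figure D1:**
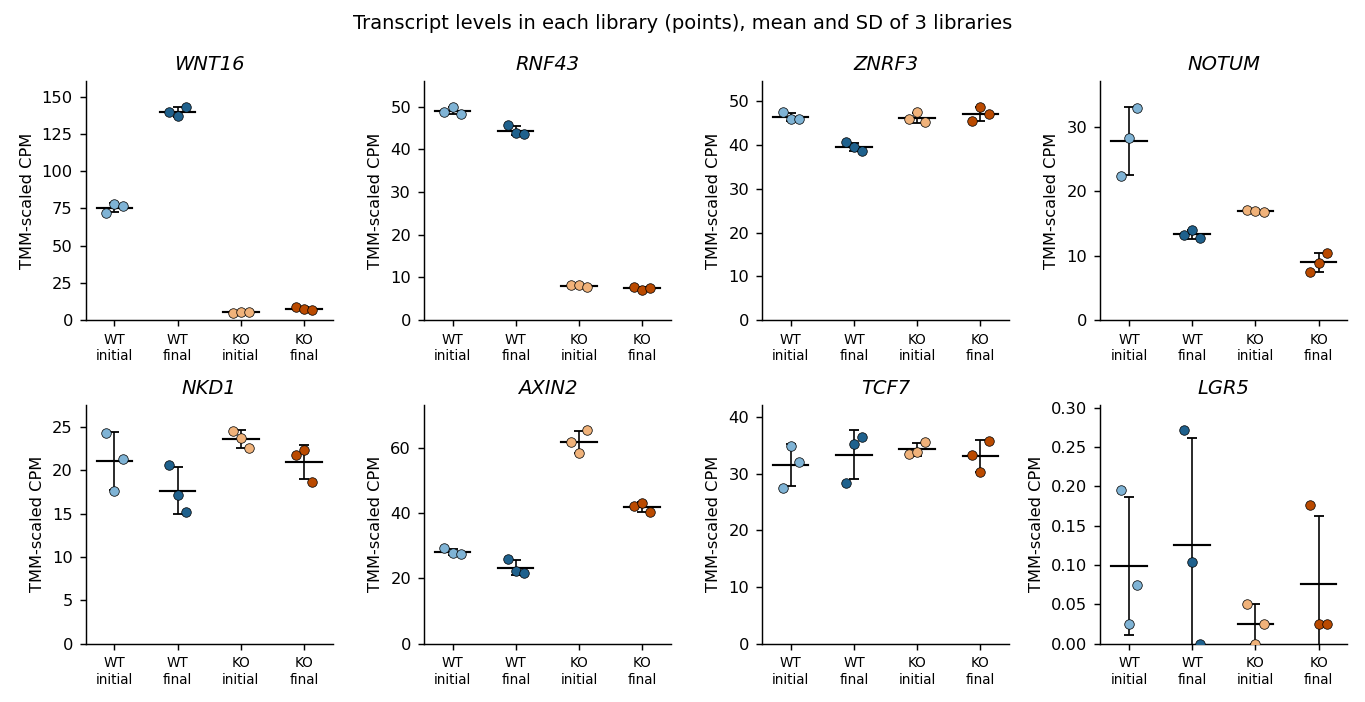
TMM-scaled CPM (y axis, from 0) of 8 of the 10 genes in each library by group, with points for libraries and lines for the mean and SD of 3 libraries. WNT16 lies between 71.8 and 143 CPM in wild type and at or under 8.58 CPM in the knock-out, RNF43 is low in all 6 knock-out libraries, AXIN2 is high in them, and LGR5 stays at or under 0.271 CPM in every library.

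Per kilobase of exon, a scale on which genes can be set side by side, WNT16 was the most abundant of the 19 Wnt ligand genes in both wild-type groups. It made up 62.8% ± 0.994 of the summed ligand level in WT initial and 73.4% ± 0.345 in WT final, against 8.01% ± 0.529 in KO initial and 12% ± 2.15 in KO final (SD, n = 3). WNT10B, another secreted ligand, ranked 2 in wild type and 1 in the knock-out, where WNT16 ranked 5 initially and 3 at the end. In KO final the neighbouring ranks of WNT3A (2.56 ± 0.380 CPM per kb), WNT16 (2.31 ± 0.273) and WNT7B (2.14 ± 0.329) differed by less than 1 SD. The other 18 ligand genes summed to 13.7 ± 1.05 CPM per kb in WT initial and 19.1 ± 0.996 in KO initial, and to 15.5 ± 0.242 in WT final and 17.1 ± 1.51 in KO final. At the initial harvest every knock-out sum of the other ligands, from 18.4 CPM per kb upward, was above every wild-type sum, which reached 14.5. At the final harvest the ranges overlapped, with wild-type sums of 15.3 to 15.8 and knock-out sums of 15.6 to 18.6.

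**Figure D2:**
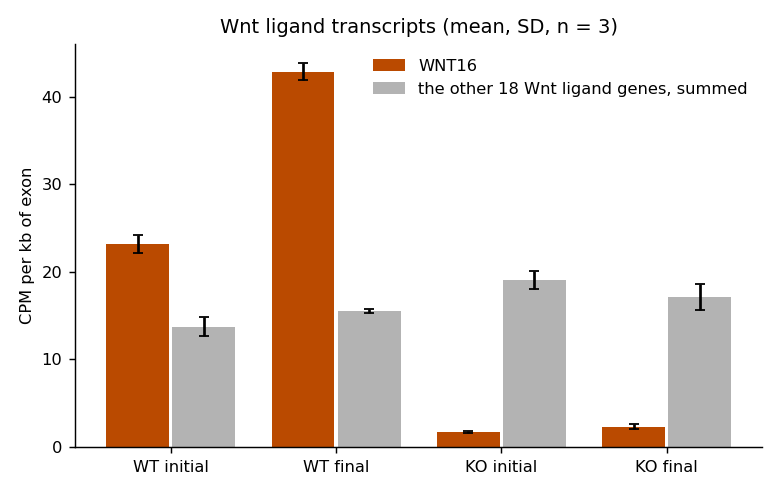
Mean level in CPM per kb of exon (y axis, from 0; error bars SD, n = 3) of WNT16 and of the other 18 Wnt ligand genes summed, in each group. WNT16 stands above the sum of all other ligands in wild type (23.1 against 13.7, and 42.8 against 15.5) and far below it in the knock-out (1.66 against 19.1, and 2.31 against 17.1).

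The genes around WNT16 on chromosome 7 were examined by their own values. Of 28 genes within 1 Mb, 9 passed the filter. Of these 9, 6 were lower in KO cells at the initial harvest and none was called higher, where 11.3% of all tested genes were called lower. At the final harvest 7 of 9 were lower and 1 was higher, where 10.2% of all genes were called lower. The median log2 fold change of the 9 was -0.80 and -1.05. The nearest gene, FAM3C, which encodes a secreted cytokine-like protein, had 56.3 ± 10.1 CPM in WT initial and 32.2 ± 3.29 CPM in KO initial (log2 fold change -0.80, adjusted p 0.0017), and its final value was -0.84 (adjusted p 0.00121). TSPAN12, a tetraspanin that assists Frizzled signalling, had log2 fold changes of -1.18 and -1.33, and ING3, a chromatin reader, -0.55 and -0.53. CPED1 gave -1.86 and -1.95 with group means under 1 CPM, PTPRZ1, a receptor phosphatase, -1.56 and -1.77 at a like level, and FEZF1-AS1, a long noncoding RNA, -1.23 and -1.05. All of these passed the threshold at both harvests. In the initial and final knock-out groups CPED1 (0.211 and 0.252 CPM) and PTPRZ1 (0.202 and 0.227 CPM) lay near the floor. Both passed the filter through their higher wild-type level, so their lower calls are partly built in and are no support. FEZF1, which overlaps FEZF1-AS1 on the other strand, passed it at the final harvest (-1.29, adjusted p 0.000626) and not at the initial (-0.60, adjusted p 0.0771). AASS, a lysine-degrading enzyme, had -0.23 and -0.26 and was not called. CADPS2 was higher at the final harvest (0.31, adjusted p 0.0192), a call lost without the final replicate 1 or 3 of either genotype (adjusted p 0.0547 to 0.0866) or with no filter (0.0591). Between 1 Mb and 4 Mb from WNT16, a distance chosen after the values were seen, 2 of 11 tested genes were lower at the initial and 1 of 11 at the final harvest. WNT16 itself differed more than any of these neighbours, and it had been chosen with its low knock-out level known, so this is a description only.

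**Figure D3:**
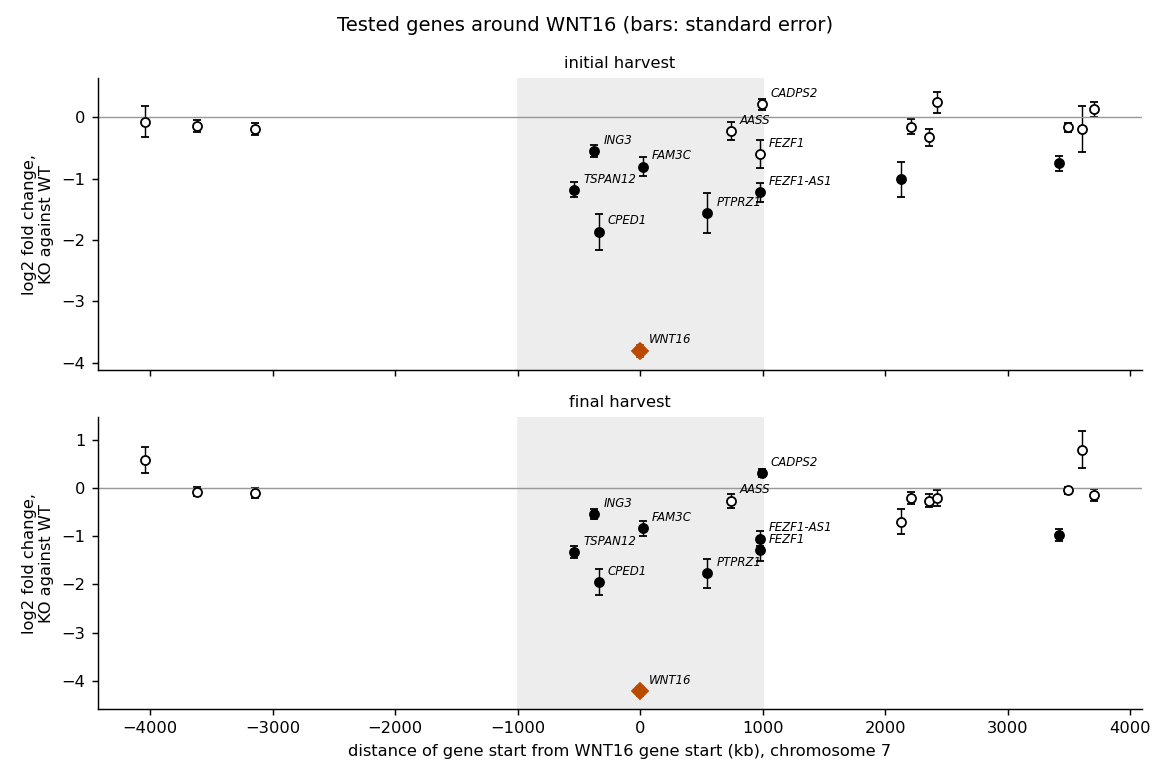
Log2 fold change of knock-out against wild type (y axis; bars SE) of every tested gene within 4 Mb of WNT16, against the distance of its start from that of WNT16 in kb, at each harvest. Filled points passed an adjusted p of 0.05; the grey band marks 1 Mb, in which 6 of 9 neighbours were lower at the initial and 7 of 9 at the final harvest, and the diamond is WNT16 at -3.80 and -4.21.

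RNF43 (ENSG00000108375.13, GRCh38 chr17:58353676-58417595, minus strand) encodes a membrane ubiquitin ligase that takes Frizzled receptors off the cell surface. The initial wild-type libraries held 48.8, 50.04 and 48.4 CPM and the initial knock-out libraries 8.17, 8.22 and 7.81 CPM. Final wild-type libraries held 45.7, 43.8 and 43.7 CPM and final knock-out libraries 7.82, 7.14 and 7.43 CPM. The genotypes did not overlap at either harvest, and the replicates of each group lay close together. In KO cells RNF43 was 6.08-fold lower initially (log2 fold change -2.60, SE 0.080, adjusted p 2.69e-12) and 5.95-fold lower finally (-2.57, SE 0.080, adjusted p 1.33e-12). It did not pass the threshold over culture in wild type (-0.14, adjusted p 0.287) or in the knock-out (-0.11, adjusted p 0.571). By its genotype log2 fold change RNF43 ranked 87th from the lowest of 18289 genes at the initial harvest and 99th at the final.

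RNF43 shares 345 exon bases with the antisense gene TSPOAP1-AS1, and whether the counting used strand is not stated, so reads there cannot be assigned with certainty. TSPOAP1-AS1 was also lower in the knock-out, at 5.45 against 0.479 CPM initially and 4.73 against 0.506 CPM finally. A further gene model, ENSG00000285897, shares 4326 exon bases on the same strand and reached 0.553 CPM as a group mean. Within 1 Mb of RNF43, in a window added after the values were seen, 30 genes were tested. At the initial harvest 3 were higher and 5 lower, and at the final 7 higher and 5 lower, where 19.9% and 18.5% of all tested genes were called. The medians were -0.05 and 0.05. TSPOAP1-AS1 (log2 fold change -3.50 and -3.22) and TSPOAP1 (-1.70 and -3.39, at 0.135 and 0.0842 CPM in the knock-out) were among those lower at both. ENSG00000285897 was lower initially (-1.44, adjusted p 0.00755) and was not called finally (-0.99, adjusted p 0.0712). CUEDC1 was higher at both (0.69 and 0.75).

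ZNRF3 (chr22:28883572-29057488, plus strand) encodes the closest relative of RNF43, with the same action on Frizzled. Its level was 47.4, 46.0 and 45.9 CPM in WT initial, 46.0, 47.5 and 45.2 in KO initial, 40.6, 39.5 and 38.7 in WT final, and 45.5, 48.7 and 47.2 in KO final. The groups overlapped at the initial harvest and did not at the final one, where the wild-type libraries were the low ones. The initial log2 difference was -0.01 (SE 0.070, adjusted p 0.963). At the final harvest ZNRF3 was 1.19-fold higher in the knock-out (log2 fold change 0.25, SE 0.070, adjusted p 0.0183), a call that was lost without the final replicate 2 or 3 of either genotype (adjusted p 0.0603 to 0.0893) and with no filter on low counts (0.145). The change of this difference between harvests did not pass the threshold (0.26, adjusted p 0.282).

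NOTUM (chr17:81952507-81961840, minus strand) encodes a secreted enzyme that removes the lipid Wnt proteins need for receptor binding. Wild-type libraries held 22.3, 28.2 and 32.9 CPM initially and 13.1, 14 and 12.7 finally. Knock-out libraries held 17.1, 16.9 and 16.8 CPM initially and 7.52, 8.80 and 10.4 finally. NOTUM was lower in KO cells at both harvests and fell over culture in both genotypes, and in each of these 4 comparisons the groups did not overlap. The genotype log2 fold change was -0.72 at the initial (SE 0.129, adjusted p 0.000835) and -0.57 at the final harvest (SE 0.136, adjusted p 0.00663). Over culture it was -1.07 in wild type (SE 0.131, adjusted p 0.000115) and -0.92 in the knock-out (SE 0.135, adjusted p 0.00176). The interaction was 0.14 (adjusted p 0.81).

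AXIN2 (chr17:65528563-65561648, minus strand) encodes a scaffold of the beta-catenin destruction complex and is widely used as a readout of canonical Wnt activity. In the genotype comparisons it lay on the opposite side to WNT16, RNF43 and NOTUM. Initial wild-type libraries held 29.3, 27.7 and 27.4 CPM and initial knock-out libraries 61.8, 58.6 and 65.4 CPM. Final wild-type libraries held 25.9, 22.4 and 21.6 CPM and final knock-out libraries 42.1, 43.2 and 40.2 CPM. Every knock-out library was above every wild-type library, and the initial knock-out libraries were the highest. In KO cells AXIN2 was 2.20-fold higher initially (log2 fold change 1.14, SE 0.085, adjusted p 7.84e-08) and 1.80-fold higher finally (0.85, SE 0.085, adjusted p 2.01e-06). It fell over culture in the knock-out (-0.57, SE 0.083, adjusted p 0.0018). In wild type the log2 fold change was -0.27 and missed the threshold (adjusted p 0.0724); DESeq2 (0.034) and the fit without the final wild-type replicate 1 (0.0172) called it. The interaction was -0.29 (adjusted p 0.316).

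NKD1 (chr16:50548396-50649249, plus strand), an antagonist that binds Dishevelled, was measured at 15.2 to 24.6 CPM and was called in none of the comparisons. Its log2 fold changes in the knock-out were 0.16 (adjusted p 0.409) and 0.25 (adjusted p 0.205), and over culture -0.26 (0.267) in wild type and -0.17 (0.555) in the knock-out. TCF7 (chr5:134114681-134151865, plus strand), which encodes a DNA-binding partner of beta-catenin, lay between 27.5 and 36.4 CPM and was likewise called in none. Its knock-out log2 fold changes were 0.12 (adjusted p 0.476) and -0.01 (adjusted p 0.968). TCF7 shares 210 exon bases with SKP1 on the other strand, a ubiquitin ligase subunit at a mean of 91.9 CPM, so part of its counts is uncertain.

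The 3 genes that did not pass the filter were near or at 0. LGR5 (chr12:71439798-71586310), an R-spondin receptor and crypt stem cell marker, had 0 to 10 counts per library and 38 over all 12. LEF1 (chr4:108047545-108168956), a relative of TCF7, had 1 count in each of 2 final wild-type libraries and 0 in the other 10. ASCL2 (chr11:2268498-2270588), a transcription factor of crypt stem cells, had 0 counts in all 12 libraries; 3 counts, the limit that a count of 0 allows, equal 0.0733 to 0.0814 CPM in these libraries. Differences between groups were not detectable at this depth for these genes.

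Of the 6 measured genes other than WNT16, 1 was higher and 2 were lower in KO cells initially, where 19.9% of all 18289 genes were called (8.55% higher and 11.3% lower). At the final harvest 2 of these 6 were higher and 2 lower, against 18.5% of all genes (8.38% higher and 10.2% lower). Over culture in wild type 1 of these 6, NOTUM, fell and 0 rose, where 6.47% of all genes were called (3.05% higher and 3.42% lower). NOTUM and AXIN2 fell over culture in knock-out cells and 0 of the 6 rose, where 1.48% were called (0.837% higher and 0.64% lower). The interaction called none of the 7 in edgeR or in DESeq2, against 1.28% of all genes in edgeR (0.809% higher and 0.476% lower); 3 of the 7 had an unadjusted p under 0.05. The library ranges of the groups did not overlap for 3 of these 6 genes in the initial genotype comparison (35.5% of all genes), 4 in the final one (33.1%), 4 over culture in wild type (22.2%) and 3 over culture in the knock-out (23.2%). The median log2 fold change of the 6 was 0.06 and 0.12 in the genotype comparisons, with members on both sides of 0. The comparisons of genotype and of time share libraries, so their values are set side by side and not correlated.

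**Figure D4:**
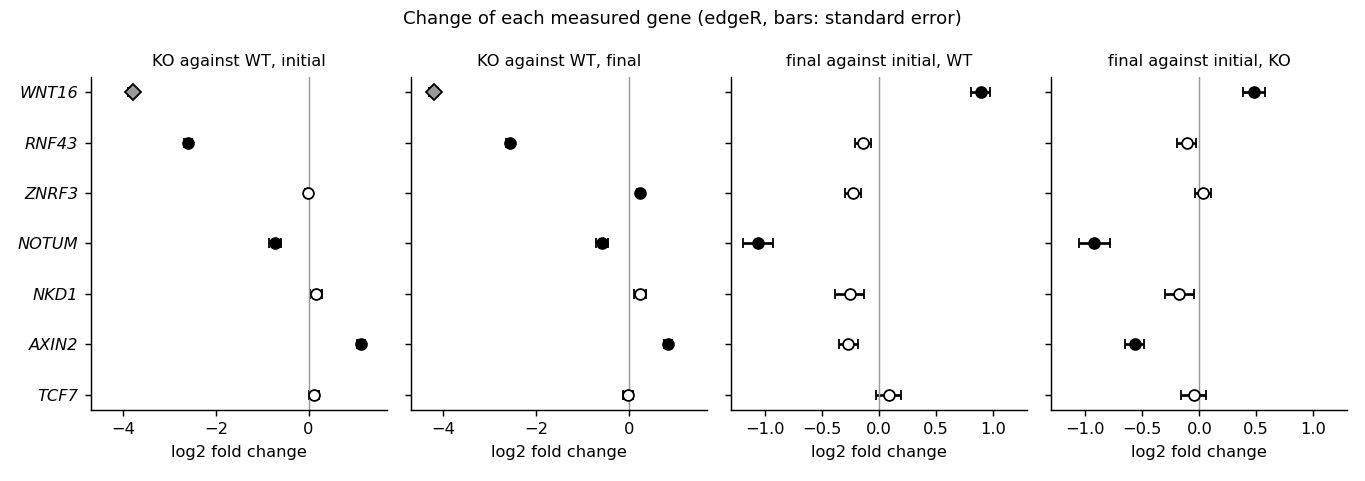
Log2 fold change (x axis; bars SE) of each of the 7 measured genes in the 4 comparisons, with filled circles past an adjusted p of 0.05, open circles not past it, and grey diamonds for the WNT16 genotype differences, which carry no test. WNT16, RNF43 and NOTUM lie left of 0 and AXIN2 right of 0 in both genotype panels, with RNF43 at -2.60 and -2.57 and AXIN2 at 1.14 and 0.85.

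The order of the genes by level per kilobase differed between genotypes. In WT initial WNT16 came highest (23.1 ± 1.01 CPM per kb), then NOTUM (9.55 ± 1.81), RNF43 (7.76 ± 0.135), ZNRF3 (6.64 ± 0.127), AXIN2 (5.38 ± 0.190), TCF7 (3.12 ± 0.369) and NKD1 (1.22 ± 0.193), and the ranges of NOTUM and RNF43 overlapped. WT final kept WNT16 at the top (42.8 ± 0.984), and NOTUM (4.56 ± 0.228) and AXIN2 (4.46 ± 0.434) overlapped. In KO initial AXIN2 was highest (11.9 ± 0.652), followed by ZNRF3 (6.61 ± 0.167), NOTUM (5.81 ± 0.0457), TCF7 (3.40 ± 0.112), WNT16 (1.66 ± 0.113), NKD1 (1.36 ± 0.0572) and RNF43 (1.27 ± 0.0355). KO final again had AXIN2 first (8.01 ± 0.285) and RNF43 last of the measured genes (1.18 ± 0.0540), with TCF7 overlapping NOTUM, NOTUM overlapping WNT16 (2.58 to 3.59 against 2.14 to 2.63), and NKD1 overlapping RNF43. Exon length includes every annotated isoform, so a gene with a long, little-used exon is placed too low on this scale.

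Genes whose centred log2 CPM over the 12 libraries was nearest to that of WNT16, among 12537 genes searched, were ACSL5, an acyl-CoA synthetase (root-mean-square difference 0.385), PALLD, an actin-binding protein (0.418), NRP1, a semaphorin and VEGF co-receptor (0.510), DNAH2, an axonemal dynein (0.521), and SEMA3A, a secreted semaphorin (0.549). ACSL5 went from 234 ± 29.9 CPM in WT initial to 518 ± 57.5 in WT final, and lay at 30.6 ± 3.30 and 38.2 ± 2.44 CPM in knock-out cells. PALLD went from 204 ± 7.29 to 456 ± 36 CPM in wild type and lay at 31.5 ± 0.869 and 31.4 ± 2 CPM in the knock-out. Both were picked for nearness to WNT16 over these 12 libraries. Their high level in WT final and low level in the knock-out therefore follow from the search. The same holds for the genes picked for nearness to AXIN2. Nearest to AXIN2 were GRIK4, a glutamate receptor subunit (0.150), KCNK5, a potassium channel (0.163), and PTPRN2, a phosphatase-like protein of secretory vesicles (0.173). KCNK5, for example, lay at 28.6 ± 2.11 and 26.8 ± 4.56 CPM in WT cells and at 54.5 ± 4.02 and 43.2 ± 1.45 CPM in KO cells.

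The rest of the pathway was read from lists of 133 other Wnt genes, of which 110 passed the filter. At the initial harvest 17 were higher and 20 lower in KO cells (33.6% called, against 19.9% of all genes), and at the final harvest 15 were higher and 22 lower (33.6%, against 18.5%). Their median log2 fold change was -0.02 and -0.04. Over culture 8 rose and 8 fell in wild type (14.5%, against 6.47%), and 1 rose and 2 fell in the knock-out (2.73%, against 1.48%).

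Among 13 tested ligands other than WNT16, 4 were higher and 2 lower at the initial harvest, and 1 higher and 3 lower at the final. These are 46.2% and 30.8% of the 13, against 19.9% and 18.5% of all genes called. WNT10B was higher in the knock-out at both (log2 fold change 0.67 and 0.56, adjusted p 0.000308 and 0.00141), with 12.5 ± 1.73 against 19.8 ± 1.85 CPM initially. WNT4 was lower at the final harvest (-0.87, adjusted p 0.00597). WNT7A, at most 0.939 CPM in any library, was lower at the initial (-1.28, adjusted p 0.0108), a call lost without the initial knock-out replicate 1 (adjusted p 0.0592). WLS, the carrier that brings Wnt proteins to the cell surface, was lower by -0.75 at the final harvest (adjusted p 2.84e-05), at 98.4 ± 6.59 against 166 ± 15.2 CPM, and rose over culture in wild type (0.48, adjusted p 0.00549). Its initial call (-0.36, adjusted p 0.0127) was lost without the initial wild-type replicate 1 or the initial knock-out replicate 2 or 3.

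Of 15 receptors and co-receptors, 2 were higher and 2 lower initially, and 1 higher and 1 lower finally. With 26.7% and 13.3% called, this list was near the 19.9% and 18.5% of all genes. FZD1, a Frizzled receptor, was higher in the knock-out at both harvests (0.57 and 0.72, adjusted p 0.000142 and 1.33e-05). FZD8 was higher at the initial harvest (1.47, adjusted p 0.00189), at 0.272 ± 0.0648 against 0.758 ± 0.0972 CPM. FZD6 was lower at both (-0.33 and -0.41), with an initial adjusted p of 0.0491 that missed the threshold under 12 of 17 alternatives, 10 of them the omission of a single library, and a final one of 0.0164 that missed it without the final wild-type replicate 1 or the final knock-out replicate 3. Among 4 R-spondins and receptors, RSPO1, an agonist that blocks RNF43 and ZNRF3, was higher finally (0.91, adjusted p 0.01), at 0.969 to 1.06 CPM in the final knock-out libraries, and this call was lost without the final wild-type replicate 3 (0.0537).

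Of 10 tested secreted or membrane inhibitors, NOTUM included, 1 was higher and 4 lower initially, and 1 higher and 5 lower finally. These are 50% and 60% of the list, against 19.9% and 18.5% of all genes. DRAXIN, a secreted antagonist, was lower at both harvests (-1.01 and -0.75, adjusted p 1.62e-05 and 0.000287). TRABD2A, a membrane protease that inactivates Wnt proteins, was lower at the final harvest (-1.07, adjusted p 7.97e-07), where wild type held 12.1, 11.3 and 12.5 CPM and the knock-out 5.74, 5.43 and 5.88 CPM, and rose over culture in wild type (0.72, adjusted p 0.00029). DKK4, a Dickkopf antagonist at under 1 CPM, was lower finally (-1.55, adjusted p 0.0339), a call lost in DESeq2 (0.0523) and without the final replicate 1 or 3 of either genotype (up to 0.157). In wild type DKK4 rose over culture (2.63), a call lost in 1 of 16 alternatives, the omission of 1 library (adjusted p 0.056). Both DKK4 calls lean on the final wild-type group, where it was high, and no library held more than 25 counts. Of 18 members of the Dishevelled and destruction complex list, AXIN2 included, 3 were higher and 1 lower at each harvest. The 22.2% called at each was near the 19.9% and 18.5% of all genes. AMER1 was higher (0.36 and 0.44, adjusted p 0.013 and 0.00348) and TNKS2, a tankyrase that marks AXIN for degradation, lower (-0.45 and -0.65, adjusted p 0.0155 and 0.0011). The initial TNKS2 call was lost without the initial wild-type replicate 1 or the initial knock-out replicate 2 or 3.

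Of 14 nuclear factors, TCF7 included, 1 was higher and 2 lower initially, and 2 higher and 5 lower finally. These are 21.4% and 50% of the list, against 19.9% and 18.5% of all genes. CHD8, a chromatin remodeller that restrains beta-catenin, was lower finally (-0.40, adjusted p 0.000767), and the co-repressor TLE1 was higher (0.44, adjusted p 0.00313) while TLE2 was lower (-0.38, adjusted p 0.00924, and 0.0551 without the final knock-out replicate 1). CTNNB1 was called at neither harvest (0.25, adjusted p 0.0596, and 0.03, adjusted p 0.881).

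Among 21 further beta-catenin targets, 5 were higher and 3 lower at the initial harvest, and 4 higher and 5 lower at the final. These are 38.1% and 42.9% of the list, against 19.9% and 18.5% of all genes. VSNL1, a neuronal calcium sensor, was higher by 1.63 and 2.18 (adjusted p 1.42e-08 and 4.08e-10), with 17.8 ± 1.74 CPM in WT final and 80.5 ± 7.92 CPM in KO final. CEMIP, a hyaluronan-binding protein, was higher by 0.41 and 1.56 (adjusted p 0.0112 and 2.81e-08), and its initial call was lost without the initial knock-out replicate 1 or 2. SOX4, a transcription factor, was lower by -2.19 and -1.64 (adjusted p 3.79e-09 and 6.44e-08), at 230 ± 36.3 against 50.5 ± 1.21 CPM initially. TNFRSF19, a receptor of the tumour necrosis factor family, was lower by -0.86 and -1.12, and MMP7, a matrix protease, by -1.40 and -2.39 at low level (1.25 ± 0.248 against 0.236 ± 0.101 CPM finally). These targets lay on both sides of 0, as RNF43 and AXIN2 did. MYC, EPHB2 and CD44, named because they are textbook targets and after their values were seen, were called at neither harvest, and CCND1 was higher at both (0.34 and 0.52, adjusted p 0.01 and 0.000335). Of 16 genes of planar polarity and other non-canonical branches, 2 were higher and 5 lower initially, and 3 higher and 2 lower finally. These are 43.75% and 31.25% of the list, against 19.9% and 18.5% of all genes. PRICKLE2, at low level (at most 1.2 CPM in any library), had 1.47 and 2.47 (adjusted p 0.00309 and 0.000121). CAMK2D had -0.57 and -0.62, and DAAM1 -0.49 and -0.36. The final DAAM1 call was lost without the final knock-out replicate 2 (0.0644). Its relative DAAM2, at most 1.17 CPM in any library, was higher finally (1.0, adjusted p 0.0215). The DAAM2 call was lost without the final knock-out replicate 2 (0.110) or the final wild-type replicate 2 (0.114).

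**Figure D5:**
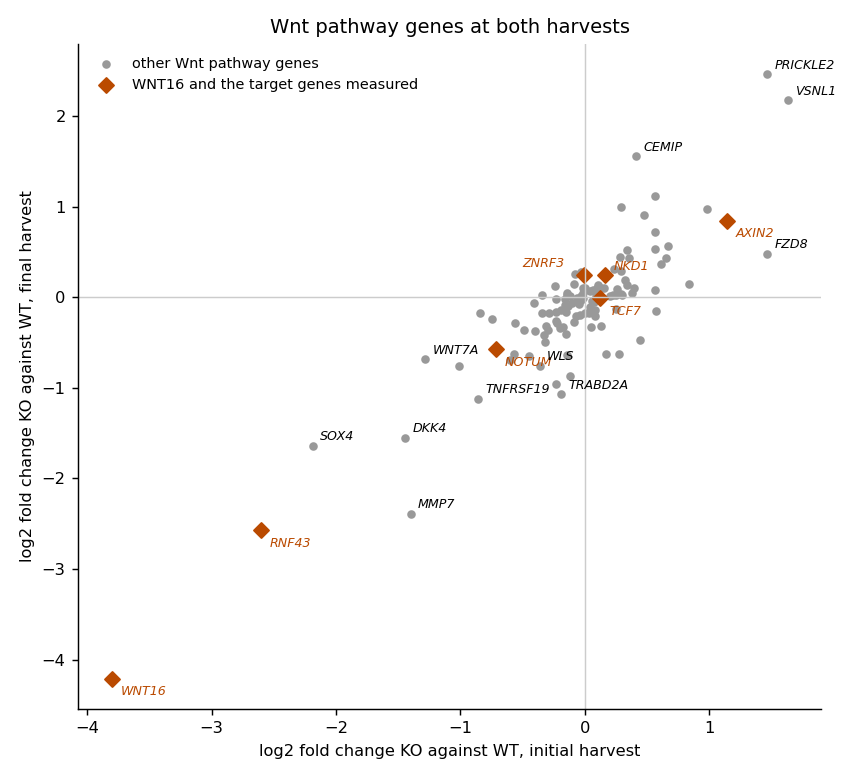
Log2 fold change, KO against WT, at the initial harvest (x axis) and the final harvest (y axis), for the 7 measured genes (diamonds) and the other tested Wnt pathway genes (grey points). WNT16 (-3.80 and -4.21) and RNF43 (-2.60 and -2.57) lie farthest toward the lower left. VSNL1 (1.63 and 2.18) and PRICKLE2 (1.47 and 2.47, at most 1.2 CPM in any library) lie farthest toward the upper right.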

How the data were processed

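The authors deposited 1 table of raw counts per gene, with 1 column for each of the 12 libraries. Per the submitters' processing notes, STAR, featureCounts of Subread and the hg38 build were used; versions, strand setting and the handling of multi-mapped reads are not given in the sources used here. A break in the table left 5 lines that name no complete gene, and these were left out. Symbols were found for 60506 of 60648 genes. Coordinates are those of the table; 37318 gene models match GENCODE 29 on GRCh38 in identifier, version and position.

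From these counts, genes were filtered with filterByExpr by group, scaled with TMM and tested with edgeR 4.0.16, under R 4.3.3 with limma 3.58.1, as 4 group means of all 12 libraries, with robust quasi-likelihood tests in 5 comparisons. P-values were adjusted by Benjamini-Hochberg over 18289 genes, with a threshold of 0.05; the SE is the log2 fold change divided by the square root of F. Replicates are biological per the labels, with no statement of separate cultures, so p-values measure the spread between these libraries. In counts simulated for the final genotype comparison from 18289 genes, 200 were changed 2-fold. Of these, 197 passed the filter and 82.2% of the 197 were recovered, with 8 calls among unchanged genes. The data had 3391 calls in that comparison, far more than were changed in the simulation, so this share need not hold for them. Limits for a count of 0 cover counting error only.

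The members, lists and rules were chosen with earlier results of these data known. Named are the members, MTHFD2, in each Wnt list the 3 genes with the smallest adjusted p under 0.05 in the final genotype comparison and those changed at least 2-fold in any comparison, the tested genes within 1 Mb of WNT16, the 5 genes nearest in pattern to WNT16 (mean log2 CPM no lower than 1) and the 3 nearest to AXIN2. Alternatives were DESeq2 1.42.0, RLE factors, no filter, a replicate block, the compared libraries alone and leaving out each library.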

Additional observations from a re-analysis of the deposited data

Results flagged for a closer look

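Of the 110 other Wnt pathway genes tested, 4 (3.64%) had a genotype difference that changed between the harvests by the interaction term of the edgeR model, against 1.28% of all genes. None of the 7 measured members was among them. TRABD2A changed by -0.88 on the log2 scale (adjusted p 0.00345), from -0.19 at the initial to -1.07 at the final harvest: wild-type libraries went from 7.27 ± 0.282 to 12 ± 0.632 CPM and knock-out libraries from 6.38 ± 0.470 to 5.68 ± 0.227 CPM (SD, n = 3). CEMIP changed by 1.15 (adjusted p 0.00059), from 0.41 to 1.56, with 63.1 ± 6.96 CPM in KO initial and 115 ± 7.12 CPM in KO final. TBX3, a T-box transcription factor named after its value was seen, changed by -0.79 (adjusted p 0.00954), from 0.17 to -0.63. WNT9A, a ligand also named after its value was seen, changed by -0.72 (adjusted p 0.0205), from 0.57 to -0.15; this call was lost when any of 5 libraries was left out (the initial wild-type replicate 3, the final wild-type replicate 2, the initial knock-out replicate 2 or 3, or the final knock-out replicate 1; adjusted p 0.0516 to 0.079).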

How the results depend on the processing

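Members called, WNT16 included, numbered 4 under all 17 alternatives at the initial harvest and 4 to 5 at the final. Over culture they numbered 2 to 3 in the knock-out and 2 to 4 in wild type (4 with DESeq2). In the interaction they numbered 0 under all 16. The genotype difference of WNT16 carries no test, so its part in these counts is no support. Without WNT16 the main fit called 3 at the initial harvest and 4 at the final, and over culture 2 in the knock-out and 1 in wild type. Of 1858 single-gene values, 1745 kept their direction and side of the threshold, 97 lost a call and 3 gained one. Genes other than the members entered this count only for comparisons in which the main fit called them. They could lose a call and not gain one. Values near 0 that turned sign were ZNRF3 initial (-0.0266 to 0.0111), TCF7 final (-0.1111 to 0.0546; 0.0004 with the compared libraries alone), TCF7 over culture in WT (-0.0068 to 0.1772) and KO (-0.1226 to 0.0059), ZNRF3 over culture in KO (-0.0009 to 0.0474), and the interactions of RNF43 (-0.0124 to 0.0636) and NKD1 (-0.0345 to 0.2202), with ranges over leaving out 1 library each. None of these was called.

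Calls over all genes ran from 2423 (without initial KO replicate 2) to 4615 (without initial WT replicate 2) at the initial harvest (3635). They were 578 with the compared libraries alone and 627 to 1399 leaving out 1 library for culture in WT (1183). For culture in KO (270) they were 602 with DESeq2, 484 with no filter, 728 with the compared libraries alone and 94 (without initial KO replicate 3) to 463 leaving out 1 library. For the interaction (235) they were 472 with DESeq2, 423 with no filter and 124 to 444 leaving out 1 library. Calls in the Wnt lists ran from 24 (without initial KO replicate 2) to 45 initially (37). For culture in WT (16) they were 6 with the compared libraries alone and 7 to 17 leaving out 1. For culture in KO (3) they were 9 with DESeq2, 6 with no filter, 7 with the compared libraries alone and 2 to 6 leaving out 1. For the interaction (4) they were 7 with no filter and 3 to 7 leaving out 1. The cause of these shifts was not tested. Leaving out a library leaves 2 in its group. The alternatives for the Wnt lists, the WNT16 neighbours and the other named genes were added after the data were seen.

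Same-numbered replicates did not deviate together throughout (correlations from -0.153 to 0.216), and not every library correlated best with its own number, so the number is not read as a pairing. With the replicate block, members called, WNT16 included, were 4, 5, 2, 3 and 0 in the 5 comparisons. Calls over all genes were 3539, 3298, 1123, 246 and 217, and Wnt list calls for culture in KO were 5. Counts near 0 limit LGR5, LEF1 and ASCL2.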
